A study of Mus musculus with 18 samples.

Results

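Hox genes encode homeodomain transcription factors that are laid out along 4 chromosomal clusters in the order in which they are used along the body. Their expression was read here in the dorsal horn of the lumbar spinal cord of the mouse as a molecular record of spinal level. A gene was taken as a member when its symbol was Hoxa, Hoxb, Hoxc or Hoxd followed by the paralog number alone, which gave 39 of the 55573 genes in the count table. No measured value entered this choice, and antisense and long non-coding RNAs of the clusters were kept apart. In all, 18 samples of spinal dorsal horn (DHSC) from the side of the injected paw were measured by RNA-seq. Each came from an adult C57BL/6J mouse and was collected 2 h after 2% formalin was injected into a hind paw, so that no animal was untreated. The groups were 6 F1/proestrus females, 6 F2/metestrus females and 6 males. F1 and F2 are the study's names for females with a short or a long interphase, the quiet period between both phases of the nocifensive response, and the females sequenced were in proestrus and in metestrus respectively, so interphase and cycle stage cannot be told apart. The study's methods place the dissection at the L3 to L5 segments. The labels give 18 separately numbered samples, and p-values measure the spread between these samples.

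Vertebrate Hox clusters show collinearity. Genes at the end with low paralog numbers are switched on first and reach far forward, to the hindbrain, while genes at the end with high numbers are switched on late and only near the tail. In the embryonic cord, paralogs 4 to 8 mark cervical and brachial levels, paralog 9 the thoracic cord, and paralog 10, with paralog 11 behind it, the lumbar and lumbosacral cord, and neurons keep much of this pattern in adult life. Hox proteins bind DNA together with TALE partners (Pbx, Meis and Pknox), retinoic acid and Cdx factors start the clusters, and Polycomb and Trithorax complexes hold their on and off states.

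Total counts ran from 73590509 to 125724156 per sample, and Hox genes took 0.0530% to 0.0699% of them. Library numbers in the count table formed 2 series, one for replicates 1 to 3 and one for replicates 4 to 6 of every group, so each series held 3 samples of each group. Markers of dorsal horn neurons (22 genes) summed to between 1085 and 1567 CPM (counts scaled to the same effective library size), each gene with a mean of at least 1 CPM, whereas a list of 10 genes of brain regions in front of the cord summed to 6.26 to 9.34 CPM. In that list Emx2 never passed 2 counts in a sample, but Neurod6 was at 3.61 to 5.99 CPM and En2 at 0.996 to 2.09 CPM in all samples. Markers of ventral and motor neurons (15 genes) varied more, from 44.4 to 268 CPM in 17 samples. One library stood apart. In F1/proestrus replicate 5, 10 markers of dorsal root ganglion neurons summed to 703 CPM, while the remaining 17 libraries lay between 11 and 37.9 CPM, and Scn10a, the sodium channel of nociceptors, reached 125 CPM against at most 0.153 CPM elsewhere. Its 15 markers of ventral and motor neurons summed to 388 CPM, of which Prph gave 203 CPM. Without Prph and Isl1, which ganglion neurons also express, the other 13 summed to 173 CPM there and to 37.5 to 209 CPM elsewhere. Results that rest on this library are given with and without it.

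The members lie on 4 chromosomes (GRCm38, GENCODE vM21 coordinates). The 11 Hoxa genes span 6:52155590-52260880 on the minus strand, the 10 Hoxb genes 11:96194316-96368256, the 9 Hoxc genes 15:102921103-103036852 and the 9 Hoxd genes 2:74668310-74765142, the last 3 on the plus strand. Transcription runs from high to low paralog number in each. Of the 39 members, 38 passed 3 counts in at least 1 sample, 32 had 10 counts or more in all 18 samples, and 26 had a mean over 1 RPKM (CPM per kilobase of exon). Counts of neighbouring members are not fully separate. Hoxd3 shared 62.8% of its exon bases with other annotated genes, Hoxb3 52.9%, Hoxd4 52.3% and Hoxa11 35%, and the library kit that the labels name does not mark strand (the study's methods name another kit), so reads of these genes and of their antisense or readthrough neighbours cannot be told apart.

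Summed levels were highest at paralog 10 and far lower beyond it, with dips on the way. The sums cover 2 genes for paralogs 2, 7 and 12, 3 for paralogs 3, 5, 6, 8, 10 and 11, and 4 for paralogs 4, 9 and 13. They depend on these numbers and are not levels per gene. Summed over clusters, paralog 2 stood at 5.97 ± 1.03 RPKM (SD, n = 18), paralog 3 at 2.77 ± 0.210 and paralog 4 at 4.41 ± 0.433 RPKM. From paralog 5 on, the sums were several-fold higher: 28.2 ± 2.67 RPKM for paralog 5, 32.5 ± 3.95 for paralog 6, 38.5 ± 4.82 for paralog 7, 27.8 ± 3.15 for paralog 8 and 39.7 ± 2.96 for paralog 9. Paralog 10 was highest at 54.4 ± 5.44 RPKM, and its 3 genes held 20.7% to 25.4% of all Hox RPKM of a sample. Paralog 11 fell to 3.56 ± 0.726 RPKM, paralog 12 to 0.645 ± 0.526 and paralog 13 to 0.0683 ± 0.0350 RPKM. The sums fell from paralog 2 to 3 and from 7 to 8. Within a sample, Hoxb8 lay below Hoxb7 by a median of 6.43-fold and Hoxc9 below Hoxc8 by 2.72-fold. The size of the fall from paralog 2 to 3 and of the rise to 4 depends on how shared exons are treated. The same counts were also divided by exon length free of other genes, without recounting reads. Such values can only stay or rise, and they hold only if no read from shared bases was counted. Hoxd3 then had 4.23 RPKM instead of 1.57 and Hoxb3 1.25 instead of 0.587. Hoxb2 also rose, from 4.8 to 6.6 RPKM, and Hoxd4 from 1.362 to 2.855 RPKM. Paralogs 12 and 13 were low, although Hoxc12 passed 3 counts in 17 of 18 samples and Hoxd13 in 16.

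**Figure D1:**
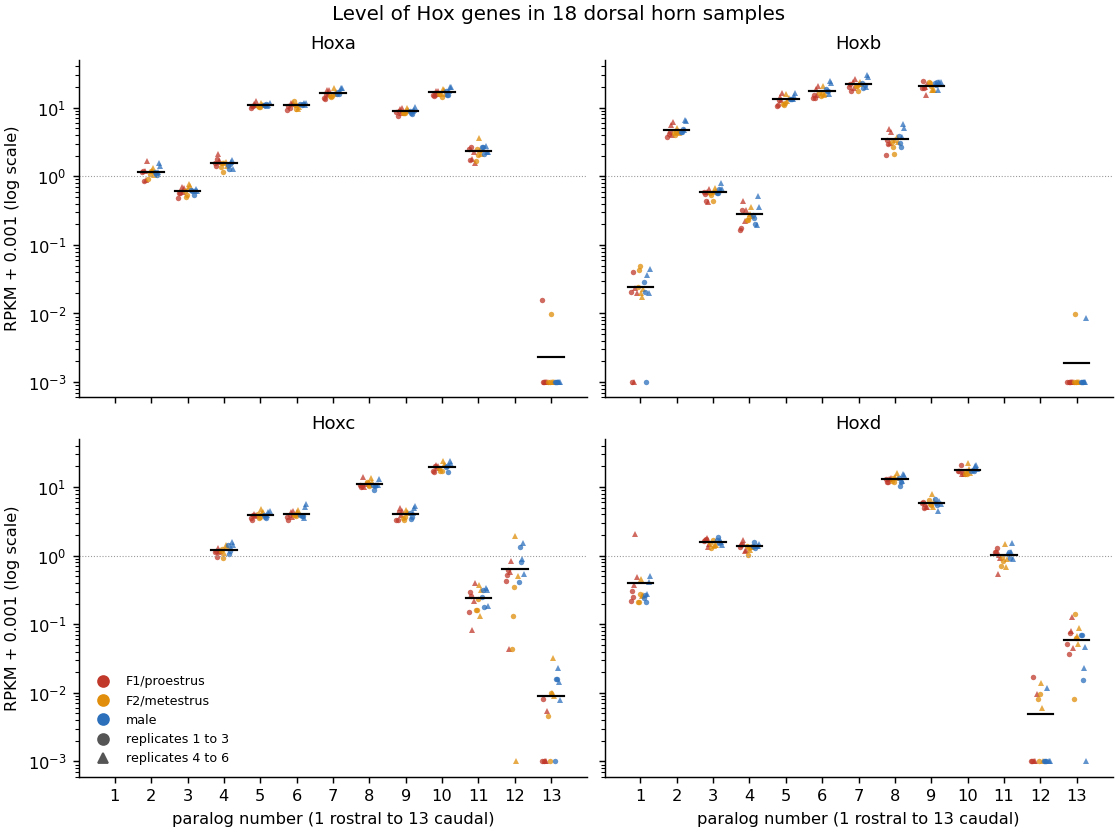
RPKM plus 0.001 (log axis) of 38 of the 39 Hox genes by paralog number, one panel per cluster, with 1 point per sample coloured by group, circles for replicates 1 to 3, triangles for replicates 4 to 6 and a bar at the mean over 18 samples; points at 0.001 had no count. Levels lie near or above 10 RPKM for many genes of paralogs 5 to 10 and drop at paralog 11 in the Hoxa, Hoxc and Hoxd panels. They are near the floor for Hoxa13, Hoxb13, Hoxc13 and Hoxd12, with Hoxd13 above Hoxd12, and the 3 groups overlap at every gene.

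The clusters contributed unequally. Hoxb gave 82.9 ± 10.6 RPKM (SD, n = 18), Hoxa 70.0 ± 5.4, Hoxc 45.2 ± 4.56 and Hoxd 41.1 ± 3.29 RPKM. The most abundant member of each cluster was Hoxb7 (22.1 ± 3.34 RPKM), Hoxc10 (ENSMUSG00000022484, 15:102966796-102971893, 19.8 ± 2.27 RPKM), Hoxd10 (ENSMUSG00000050368, 2:74691924-74695105, 17.8 ± 2.19 RPKM) and Hoxa10 (ENSMUSG00000000938, 6:52231197-52240854, 16.9 ± 1.79 RPKM), so Hoxc and Hoxd were led by their paralog 10, known there for specifying lumbar motor neurons. In Hoxa the leader depends on the length used. With the same counts over exon length free of other genes, Hoxa7 had 20.6 RPKM and Hoxa10 16.9 RPKM. Hoxb, which has no paralog 10, 11 or 12, was led by paralogs 7 and 9. Hoxb9 followed Hoxb7 at 20.9 ± 2.61 RPKM.

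The order at the top was not resolved by these samples. Hoxb7 exceeded Hoxb9 in 11 of 18 samples, Hoxb9 exceeded Hoxc10 in 10, Hoxd10 exceeded Hoxb6 (17.5 ± 3.06 RPKM) in 10, and Hoxa10 exceeded Hoxa7 (16.4 ± 1.95 RPKM) in 10. The first clear gap came below Hoxa7, which lay above Hoxb5 (13.3 ± 1.80 RPKM) in 18 of 18 samples. Among the remaining paralog 9 genes, Hoxa9 stood at 8.96 ± 0.746 RPKM, Hoxd9 at 5.80 ± 0.761 and Hoxc9, the gene that sets thoracic motor neuron identity, at 4.09 ± 0.627 RPKM. Hoxc9 was therefore the lowest of the 4, with a median ratio of Hoxc9 to Hoxc10 of 0.209 within the same sample. Of the low paralogs in Hoxb, Hoxb4 stood at 0.280 ± 0.0910 RPKM and Hoxb3 at 0.587 ± 0.0954, and Hoxb1, a hindbrain gene, had at most 12 counts. Hoxb2 was higher, at 4.80 ± 0.855 RPKM. Ranked by mean RPKM, Hoxc13, Hoxd12, Hoxa13 and Hoxb13 ended the list, at 36 to 39. Not all caudal members were that low, since Hoxa11 (rank 20) and Hoxd11 (26) lay above Hoxd1 (30) and Hoxb4 (31).

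The break between paralogs 10 and 11 differed in depth between clusters. Within a sample, Hoxa10 exceeded Hoxa11 by a median of 7.19-fold per length (range 5.23 to 11.3). The drop was 17.4-fold from Hoxd10 to Hoxd11 (13.8 to 28.3) and 79.0-fold from Hoxc10 to Hoxc11 (51.7 to 253). These ranges do not overlap, so the order Hoxa, Hoxd, Hoxc held in every sample. For Hoxa11 the value depends on its overlap with Hoxa11os, and the same counts over exon length free of other genes gave 4.67-fold. Hoxc12 (15:102936757-102938609) interrupted the decline, with a mean of 0.641 RPKM against 0.241 RPKM for Hoxc11, which lies nearer to Hoxc10. At paralog 13, Hoxd13 had 0 to 36 counts (median 14), while Hoxc13 had at most 6, Hoxa13 and Hoxd12 at most 4 and Hoxb13 at most 2 counts. A count of 3 corresponds to 0.0240 to 0.0407 CPM, and presence of these last 4 genes was not detectable at this depth in most samples.

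The sequence before the start of the genes at this break is shown to set their base composition beside their level. RefSeq (GRCm38.p6) gave the 250 bases before the start of 22 members, with 2 starts each for Hoxa10 and Hoxd11. They are written from the 5′ end with every CG dinucleotide in capitals, for Hoxd10 at chr2:74691641-74691890, Hoxd11 at chr2:74679308-74679557 and chr2:74682073-74682322, Hoxd12 at chr2:74674763-74675012 and Hoxd13 at chr2:74667975-74668224, all on the plus strand.
Hoxd10: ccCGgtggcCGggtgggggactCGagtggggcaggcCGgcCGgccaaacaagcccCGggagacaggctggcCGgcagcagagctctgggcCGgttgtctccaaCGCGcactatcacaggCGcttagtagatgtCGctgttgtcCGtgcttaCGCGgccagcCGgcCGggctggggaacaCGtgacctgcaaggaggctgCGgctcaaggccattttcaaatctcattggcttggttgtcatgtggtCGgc
Hoxd11, first start: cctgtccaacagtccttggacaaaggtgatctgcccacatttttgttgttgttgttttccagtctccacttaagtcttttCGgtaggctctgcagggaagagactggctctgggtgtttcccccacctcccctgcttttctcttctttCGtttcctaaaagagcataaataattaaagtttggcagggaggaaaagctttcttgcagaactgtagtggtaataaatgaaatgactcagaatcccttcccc
Hoxd11, second start: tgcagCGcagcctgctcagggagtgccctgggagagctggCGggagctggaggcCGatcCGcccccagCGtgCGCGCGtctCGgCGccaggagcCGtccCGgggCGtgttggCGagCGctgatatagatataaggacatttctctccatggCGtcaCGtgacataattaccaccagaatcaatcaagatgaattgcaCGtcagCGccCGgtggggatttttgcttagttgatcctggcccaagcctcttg
Hoxd12: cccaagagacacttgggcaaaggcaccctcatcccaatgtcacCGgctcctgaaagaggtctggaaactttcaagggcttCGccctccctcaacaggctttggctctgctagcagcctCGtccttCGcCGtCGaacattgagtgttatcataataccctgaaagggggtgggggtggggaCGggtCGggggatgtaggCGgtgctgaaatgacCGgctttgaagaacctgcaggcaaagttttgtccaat
Hoxd13: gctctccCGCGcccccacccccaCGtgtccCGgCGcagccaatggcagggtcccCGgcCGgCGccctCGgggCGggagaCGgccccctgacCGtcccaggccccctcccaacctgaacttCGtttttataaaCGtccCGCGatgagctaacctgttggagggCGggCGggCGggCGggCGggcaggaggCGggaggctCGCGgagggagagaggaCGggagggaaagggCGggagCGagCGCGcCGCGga

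Base composition before the start did not follow the level. Hoxd10, at 17.8 RPKM, had 20 CG dinucleotides, and Hoxd13, at 0.0581 RPKM, had 31. For both of these genes, and for Hoxa7, the first 20 bases after the RefSeq start were in no GENCODE transcript of the gene. Their windows may therefore not lie directly before the start of the transcripts counted. Hoxd11 had 2 at its first start and 20 at its second, and Hoxd12, at 0.00385 RPKM, had 10. The 24 Hox promoters had a median of 12.5 CG, against 6 over all 32851 promoters of the table, and a median ratio of observed to expected CG of 0.721 against 0.373. In promoters of the 7 genes at or under 1 RPKM the median number was 18, and in the 17 promoters of genes above it 12. The letters CCAAT, on either strand, occurred in 58.3% of Hox promoters and 33.8% of all promoters, and TATAAA in 16.7% and 12.4%. These are descriptions of letters in a window of 250 bases.

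Since L3 to L5 lie just in front of the sacral cord, the genes at the caudal edge of the pattern were followed sample by sample. Hoxd11, in F1/proestrus replicates 1 to 6, was at 4.77, 4.75, 5.38, 2.28, 4.35 and 3.84 CPM. F2/metestrus replicates 1 to 6 gave 2.97, 4.04, 3.53, 6.18, 2.91 and 3.76 CPM, and male replicates 1 to 6 gave 4.52, 4.77, 3.93, 4.79, 6.46 and 3.74 CPM. The groups overlapped throughout, and the lowest and highest values were 2.83-fold apart. Hoxc12 spread much further. It was at 0.446, 0.543, 0.638, 0.0440, 0.604 and 0.864 CPM in the F1/proestrus samples, at 0.0445, 0.135, 0.364, 1.98, 0 and 0.528 CPM in the F2/metestrus samples, and at 0.425, 1.38, 0.829, 0.923, 1.59 and 0.556 CPM in the males. In counts, F2/metestrus replicate 4 had 180 reads of Hoxc12 and F2/metestrus replicate 5 had none, and F1/proestrus replicate 4 and F2/metestrus replicate 1 had 4 and 5. So the same group held the highest and the lowest sample.

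Hoxc11 and Hoxa11 pointed to some of the same samples. Hoxc11 ran from 0.165 CPM in F1/proestrus replicate 4 to 0.798 CPM in F1/proestrus replicate 6, with F2/metestrus replicate 4 next at 0.759 CPM. Hoxa11 ran from 3.58 CPM in F1/proestrus replicate 6 to 8.29 CPM in F2/metestrus replicate 4. F2/metestrus replicate 4 thus ranked first or second of 18 for all 4 genes. F1/proestrus replicate 4 ranked last for Hoxc11 and Hoxd11, and 17 of 18 for Hoxc12, but 15 of 18 for Hoxa11. F1/proestrus replicate 6, first for Hoxc11 and last for Hoxa11, went both ways. In these 2 samples with the number 4, ganglion markers summed to 24.4 CPM in F1/proestrus and 34 CPM in F2/metestrus, and markers of ventral and motor neurons to 154 and 257 CPM, and their part in the result was not tested.

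**Figure D2:**
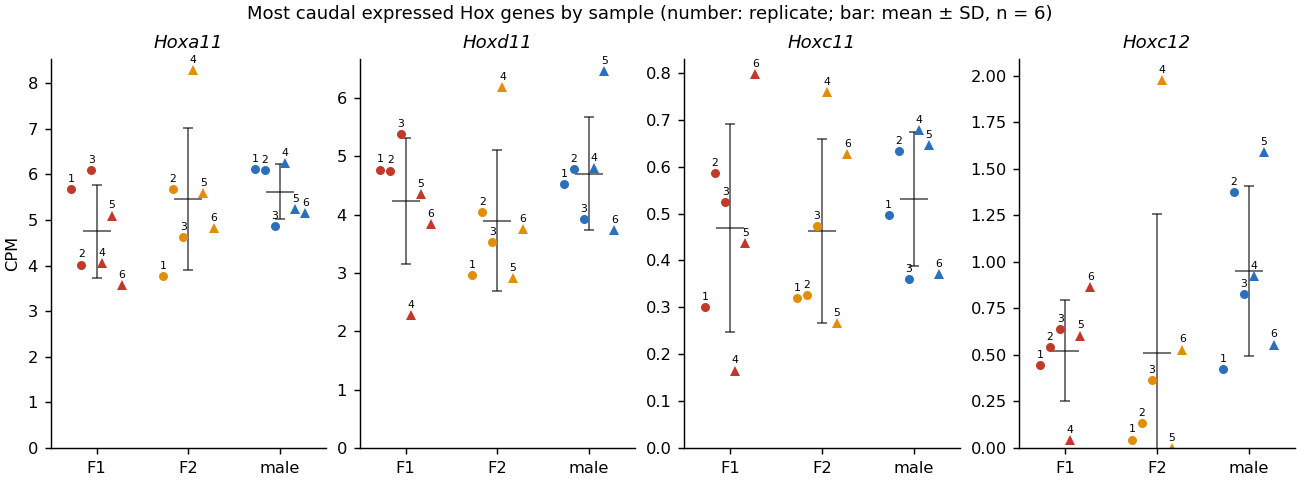
CPM of Hoxa11, Hoxd11, Hoxc11 and Hoxc12 by group, one point per sample labelled with its replicate number, circles for replicates 1 to 3 and triangles for replicates 4 to 6, with the mean ± SD of 6 samples (the bar of Hoxc12 in F2/metestrus is cut at 0). F2/metestrus replicate 4 is at or near the top of each panel (8.29 CPM for Hoxa11, 1.98 CPM for Hoxc12) and F1/proestrus replicate 4 near the bottom for Hoxd11 (2.28 CPM), Hoxc11 and Hoxc12.

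Pairs of these 4 genes were correlated after their values had been seen, as a description over 18 samples that share library and depth. On log2(CPM + 0.1), Pearson's r was 0.832 (Spearman's rho 0.769) for Hoxd11 and Hoxc12, which lie on different chromosomes, 0.812 (0.814) for Hoxc11 and Hoxc12, and 0.716 (0.628) for Hoxc11 and Hoxd11. Within replicates 1 to 3 the r values of these pairs were 0.692, 0.641 and 0.509, and within replicates 4 to 6 they were 0.912, 0.878 and 0.806. Without the 2 samples farthest from the median of the gene named first, they were 0.778, 0.715 and 0.486. Over all 18 samples Hoxa11 was tied less closely, with r of 0.602 to Hoxd11, 0.405 to Hoxc12 and 0.248 to Hoxc11. Hotair, the long non-coding RNA transcribed between Hoxc11 and Hoxc12, was also lowest in F1/proestrus replicate 4 (0.231 CPM) and highest in F2/metestrus replicate 4 (1.31 CPM). Its r with Hoxc12 was 0.962 within replicates 4 to 6 and 0.206 within replicates 1 to 3, and without the 2 samples farthest from the median it was 0.464, so its size differed between the series and with those samples.

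Spread between samples was largest at the caudal end. Among the 32 members with at least 10 counts everywhere, the highest sample exceeded the lowest by a median of 1.54-fold for paralogs 5 to 10 (18 genes, range 1.27 to 2.87), 1.82-fold for paralogs 1 to 4 (11 genes, 1.41 to 9.79) and 2.83-fold for paralog 11 (3 genes, 2.32 to 4.83). The 9.79 belongs to Hoxd1 and rests on F1/proestrus replicate 5, since the other libraries lay between 0.392 and 0.943 CPM. The next gene of paralogs 1 to 4 was Hoxb4 at 3.1-fold. Low counts widen such ratios, so the dispersion edgeR estimated for each gene was also set against the trend of all genes at the same abundance. Hoxc12 lay 10.1-fold over the trend, higher than 99.6% of the 24862 genes tested. Hoxd13 followed at 2.91-fold, Hoxd1 at 2.52-fold, Hoxd11 at 2.04-fold and Hoxb8 at 1.82-fold. Hoxa5, a cervical and brachial gene, was the steadiest at 0.396-fold, and its 18 samples lay between 9.84 and 12.5 RPKM. By set, the median was 0.546-fold for the 11 tested genes of paralogs 1 to 4, 0.852-fold for the 18 of paralogs 5 to 10 and 2.04-fold for the 5 of paralogs 11 to 13, so the first 2 sets stood in the opposite order to their fold ranges. The median over 34 tested Hox genes was 0.897-fold and over all genes 0.709-fold, with 41.2% and 28.2% of genes over the trend. Without F1/proestrus replicate 5, Hoxd1 fell to 0.553-fold, whereas Hoxc12 stood at 11.3-fold and Hoxd11 at 2.54-fold.

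To place each sample on 1 axial scale, paralog numbers were averaged with RPKM as weights. This mean ran from 7.46 in F1/proestrus replicate 6 to 7.69 in F1/proestrus replicate 3. By group it was 7.58 ± 0.0947 in F1/proestrus, 7.62 ± 0.0409 in F2/metestrus and 7.58 ± 0.0425 in males (SD, n = 6), so the groups differed by less than the spread within them. The F1/proestrus females had the widest spread of the 3 groups. A second scale, the mean log2(RPKM + 0.1) of the 3 paralog 10 genes minus that of 19 genes of paralogs 4 to 9, ran from 1.42 in F1/proestrus replicate 4 to 1.81 in F2/metestrus replicate 4. Its group means were 1.59 ± 0.128, 1.63 ± 0.0970 and 1.62 ± 0.0872. Both scales are scores over the members and were given no test. The extremes on the second scale were the samples that were also low and high for Hoxd11 and Hoxc12. Other values placed samples differently. Within Hoxb alone, F2/metestrus replicate 4 had the lowest weighted mean of the 18 samples (6.51). F1/proestrus replicate 6, lowest on the first scale, ranked 1 of 18 for Hoxc11 and 5 for Hoxc12, but 12 for Hoxd11 and 18 for Hoxa11.

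Taken by cluster, the weighted mean was 7.44 for Hoxa, 6.67 for Hoxb, 8.46 for Hoxc and 8.69 for Hoxd (medians of 18 samples). In Hoxb it separated the library series rather than the groups, with 6.67 to 6.89 in replicates 1 to 3 and 6.51 to 6.66 in replicates 4 to 6. Hoxb9 had means of 56.6 and 50.7 CPM in the first and second series, and Hoxb7 of 31.4 and 36.9 CPM, but only the difference of Hoxb7 passed the edgeR test between series. In Hoxa, Hoxc and Hoxd, the series overlapped.

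**Figure D3:**
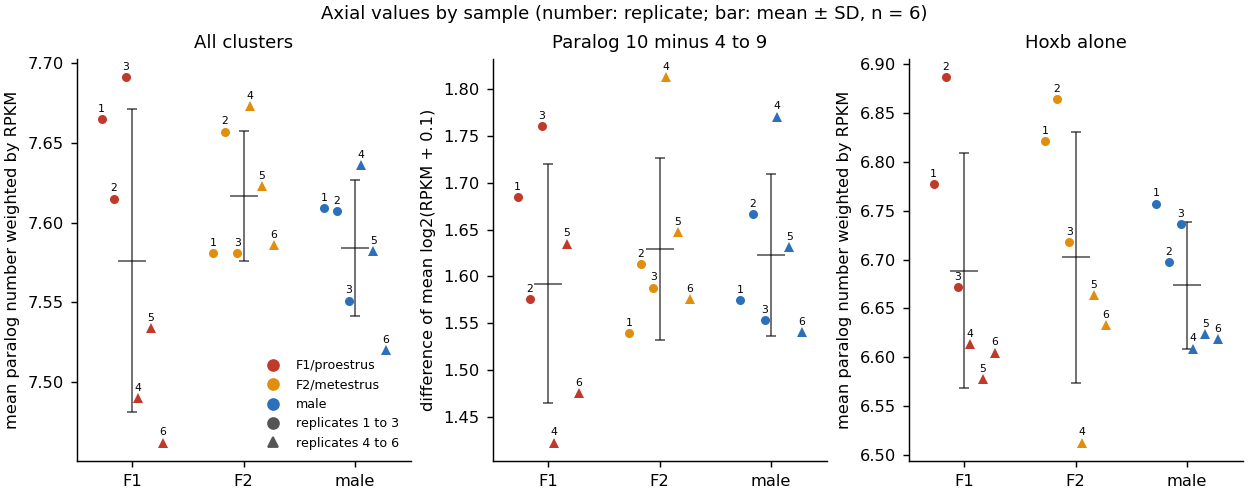
Axial values by group, one point per sample labelled with its replicate number (circles, replicates 1 to 3; triangles, replicates 4 to 6) with the mean ± SD of 6 samples: RPKM-weighted mean paralog number over all clusters, paralog 10 minus paralogs 4 to 9 in log2 units, and the weighted mean in Hoxb alone. The groups overlap in each panel, and in the Hoxb panel all circles (6.67 to 6.89) lie above all triangles (6.51 to 6.66).

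The first comparison asked whether the dorsal horn of females in metestrus with a long interphase differed from that of females in proestrus with a short one. Of the 34 members tested by edgeR (quasi-likelihood), 0 passed at 5% FDR. The background was the same, since 0% of 24042 genes were called, with 596 at an unadjusted p under 0.05. Among the members 1 was under that p in edgeR, and DESeq2 also called 0 with 1 under it. Of the 34, 32 had a fitted log2 difference within 0.25 of 0, 18 were positive and 16 negative, and the median was 0.01. The paralog 10 genes were close to equal. Hoxa10 was at 53.0 ± 3.91 CPM in F1/proestrus and 54.1 ± 5.83 CPM in F2/metestrus (SD, n = 6), Hoxc10 at 36.4 ± 3.45 and 38.0 ± 5.32 CPM, and Hoxd10 at 31.1 ± 4.00 and 32.0 ± 4.85 CPM. Differences of that size were smaller than the SD in either group. The smallest p-values belonged to Hoxd1 (log2 difference -1.15, SE 0.50), Hoxa4 (-0.23, SE 0.11) and Hoxd3 (-0.16, SE 0.09), each with an adjusted p of 1 by edgeR. Hoxa4 was at 2.71 ± 0.379 CPM in F1/proestrus and 2.31 ± 0.264 CPM in F2/metestrus, and the groups overlapped for each of the 34 members.

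Males were then compared with the 12 females taken as 1 condition. Again 0 of 34 Hox genes passed, beside 0.197% of 24862 genes (49) called. DESeq2 also called 0 members, and 1 member had an unadjusted p under 0.05 in each tool, as did 2416 of all genes in edgeR. With the library series as a covariate 7 members were under that p, beside 4075 of the 24862 genes. With a block for replicate number 8 were, beside 3993 genes, again with 0 members called in both. The fitted differences leaned to one side, with 27 members higher in males, 7 lower and a median of 0.10 on the log2 scale, against -0.0013 over all genes. The lean was smaller within the first series (median 0.06) and without male replicate 5 (0.06, with 24 higher and 10 lower), and without male replicate 6 the split was 22 and 12. Genes of Hoxb had the smallest p-values. Hoxb6, a gene of the trunk, had a lowest, median and highest value of 27.2, 31.0 and 41.0 CPM in females and 30.7, 35.4 and 48.1 CPM in males. Its log2 difference was 0.24 (SE 0.10, edgeR adjusted p = 0.431). Hoxb3 and Hoxb2, which pattern the hindbrain, differed by 0.23 (SE 0.11, adjusted p = 0.515) and 0.21 (SE 0.11, adjusted p = 0.524). The groups overlapped in each case. Among caudal genes, Hoxc12 was at 0.950 ± 0.456 CPM in males, 0.523 ± 0.273 CPM in F1/proestrus and 0.508 ± 0.748 CPM in F2/metestrus females, with a log2 difference of 0.88 (SE 0.58, adjusted p = 0.624). Hoxd13, at 36 counts or fewer, had a difference of -0.90 (SE 0.51, adjusted p = 0.569). Marker levels also differed by sex. Dorsal horn markers summed to 1275 to 1567 CPM in males and 1085 to 1378 CPM in females, and 2 of 22, Grp and Penk, passed the test with higher levels in males, as did 1 of 8 Schwann cell markers, Ncmap. Markers of ventral and motor neurons went the other way, with 13 of 15 lower in males, a median of -0.46 and none past the test. The 15 include Prph and Isl1. Their sums were 44.4 to 233 CPM in males and 64.9 to 388 CPM in females (at most 268 CPM without F1/proestrus replicate 5). The part of these markers in the lean of the Hox values was not tested. In bulk tissue, fewer cells of a type and less RNA per cell cannot be told apart.

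**Figure D4:**
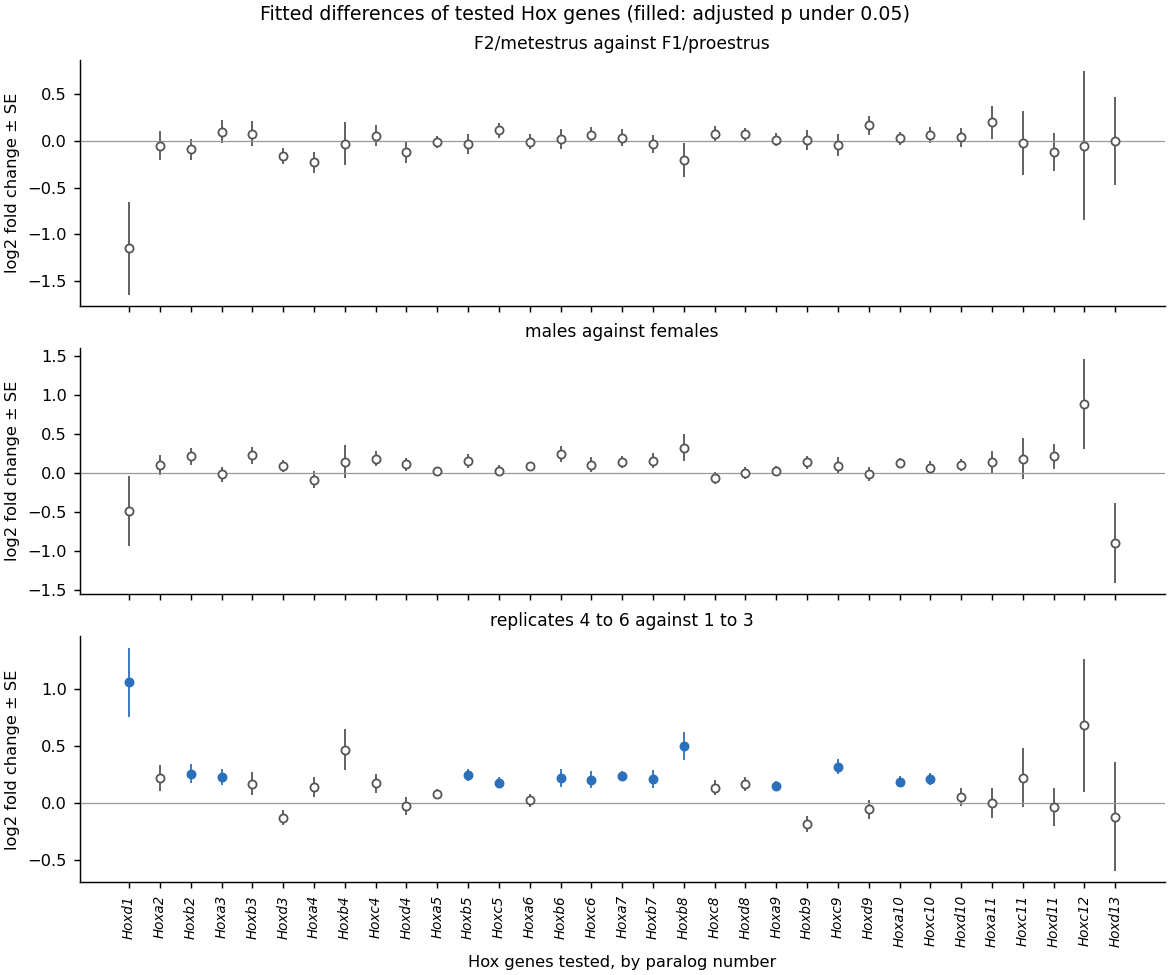
Fitted log2 fold change ± SE of the tested Hox genes (1 not shown), ordered by paralog number, for F2/metestrus against F1/proestrus, males against females, and replicates 4 to 6 against 1 to 3; filled points had an adjusted p under 0.05. No point is filled in the first 2 panels, 14 are filled in the third, all above 0, and none of paralogs 11 to 13 is.

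Hox levels did differ between the library series. With group in the fit, 14 of 34 members were higher in replicates 4 to 6 than in replicates 1 to 3 and none was lower at an FDR of 5% (edgeR). Over all 24038 genes 27.6% were called, 12.4% as higher, so 41.2% of the tested members stood beside a background of 12.4% in that direction. Many genes shifted with the series, and the Hox genes were 14 among 2981 called higher. The changes were small. The median over the 34 members was 0.18 on the log2 scale, against -0.01 over all genes, and 12 of the 14 lay between 0.15 and 0.32.

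Among paralogs 5 to 10, 11 of 18 tested members were called, among paralogs 1 to 4 3 of 11, and among paralogs 11 to 13 0 of 5. Those 5 had SEs of 0.13 (Hoxa11) to 0.58 (Hoxc12), against 0.04 (Hoxa7) to 0.12 (Hoxb8) in paralogs 5 to 10. The 0 of 5 therefore does not show that these genes were unshifted. The median log2 difference was 0.18 for paralogs 5 to 10 and 0.22 for paralogs 1 to 4, and the difference between the sets was not tested. By cluster, 4 of 10 Hoxa, 5 of 8 Hoxb, 4 of 8 Hoxc and 1 of 8 Hoxd genes were called. Hoxa7 had the smallest p. It had a lowest, median and highest value of 38.4, 43.0 and 48.6 CPM in the first series and 45.1, 52.3 and 56.4 CPM in the second, a log2 difference of 0.24 (SE 0.04, adjusted p = 0.000273). The ranges overlapped slightly. Hoxc9 rose by 0.32 (SE 0.07, adjusted p = 0.00113), from 7.95, 8.48 and 10.4 CPM to 9.65, 11 and 12.7 CPM. Hoxb8, a gene needed for normal dorsal horn organisation and for grooming and pain responses in the mouse, rose by 0.50 (SE 0.12, adjusted p = 0.00367), from 5.31, 7.71 and 10.1 CPM to 8.17, 9.93 and 15.3 CPM. Hoxc10 and Hoxa10 rose by 0.21 (adjusted p = 0.00438) and 0.19 (adjusted p = 0.00575). The other members called were Hoxb5, Hoxc5, Hoxa9, Hoxd1, Hoxb2, Hoxa3, Hoxc6, Hoxb6 and Hoxb7. The last 3 were lost when 1 of several libraries was left out, with adjusted p-values of up to 0.06 for Hoxc6 and 0.0709 for Hoxb6 (both without F1/proestrus replicate 4) and 0.0888 for Hoxb7 (without F2/metestrus replicate 3).

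Of the tested members of paralogs 10 to 13, Hoxa10 and Hoxc10 passed and the others had values of both signs. Hoxd10 had a log2 difference of 0.06 (SE 0.08, adjusted p = 0.641), Hoxd11 of -0.03 (SE 0.16, adjusted p = 0.908) and Hoxa11 of -0.00083 (SE 0.13, adjusted p = 0.997), while Hoxc11 had 0.22 (SE 0.26, adjusted p = 0.573) and Hoxc12 0.68 (SE 0.58, adjusted p = 0.421). Hoxb9 went the other way, at -0.18 (SE 0.07), without passing the test (adjusted p = 0.0687). Leaving out F1/proestrus replicate 5 raised the number of members called to 19, and that of all genes called higher from 2981 to 3581. Other genes that mark the tissue moved with the series as well. Of 22 dorsal horn markers, 10 were higher and none lower (Tlx3, Lbx1, Tac1, Tac2, Cck, Grp, Npy, Penk, Gal and Maf), with a median of 0.22, and 3 of 8 Schwann cell markers, Cldn19 and Sox10 among them, were higher. None of the markers of ventral and motor neurons, blood or meningeal fibroblasts passed. Their part in the shift of the Hox genes was not tested.

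Hoxd1, the most rostral gene of its cluster and one known for its use in nociceptive sensory neurons, behaved unlike the other members. In F1/proestrus replicates 1 to 6 it was at 0.401, 0.569, 0.463, 0.683, 3.84 and 0.907 CPM, in F2/metestrus at 0.392, 0.394, 0.507, 0.836, 0.482 and 0.498 CPM, and in males at 0.441, 0.498, 0.396, 0.516, 0.768 and 0.943 CPM. A single sample, F1/proestrus replicate 5, was thus 7.70-fold over the median of the others, with 438 counts against 38 to 112. This is the library with ganglion markers, of which 10 of 10 were highest there and 9 of 10 over 10 times the next sample. In the same library Hoxb9 (39.6 CPM) and Hoxb3 (1.80 CPM) were the lowest of the 18. With this sample the F1/proestrus mean of Hoxd1 was 1.14 ± 1.33 CPM (n = 6), and without it 0.605 ± 0.200 CPM (n = 5), against 0.518 ± 0.164 CPM in F2/metestrus. The log2 difference between these groups went from -1.15 to -0.22 (SE 0.25, edgeR adjusted p = 1). The difference between series held, at 1.06 (SE 0.30, adjusted p = 0.0133) with the sample and 0.65 (SE 0.16, adjusted p = 0.00403) without it. The part of ganglion tissue in this value was not tested.

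**Figure D5:**
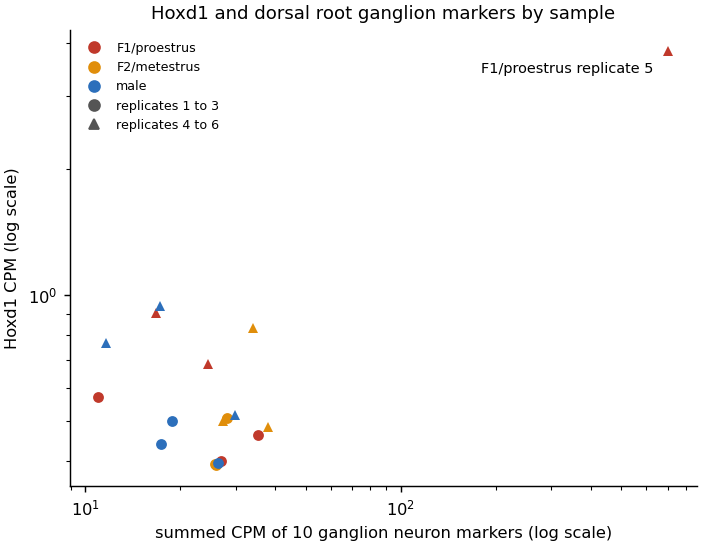
Hoxd1 CPM against the summed CPM of 10 dorsal root ganglion neuron markers in each of the 18 samples, both axes logarithmic, coloured by group with circles for replicates 1 to 3 and triangles for replicates 4 to 6. F1/proestrus replicate 5 lies alone at 703 and 3.84 CPM, and the other samples lie between 11 and 37.9 CPM of markers and 0.392 and 0.943 CPM of Hoxd1.

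Whether samples differed along the axis was also asked with 6 pairs of genes, 3 of the same paralog number on different chromosomes and 3 of different number within a cluster. Hoxa10 and Hoxc10 had r = 0.798 and rho = 0.792 over 18 samples (permutation test, adjusted over the 6 pairs, p = 0.00048 for both). Hoxc10 and Hoxd10 had r = 0.584 (adjusted permutation p = 0.0175) and rho = 0.488 (0.0646), and Hoxa10 and Hoxd10 had r = 0.462 (0.0641) and rho = 0.333 (0.212). Within clusters the values covered a wider range. Hoxc10 and Hoxc6 had r = 0.681 (adjusted permutation p = 0.00489) and rho = 0.699 (0.0043), Hoxa10 and Hoxa5 had r = 0.632 (0.00952) and rho = 0.692 (0.0043), and only Hoxd10 and Hoxd4 were unrelated with r = 0.00495 (0.984) and rho = 0.129 (0.608). The difference between both kinds of pair was not tested.

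The series shifted several of these genes, and the relations did not pass within it. For Hoxa10 and Hoxc10, r was 0.372 within replicates 1 to 3 (exact permutation test, adjusted p = 0.514, n = 9) and 0.745 within replicates 4 to 6 (exact, adjusted p = 0.0708, n = 9). Hoxc10 and Hoxd10 gave 0.552 and 0.732, Hoxc10 and Hoxc6 0.578 and 0.480, Hoxa10 and Hoxa5 0.377 and 0.323, Hoxa10 and Hoxd10 0.140 and 0.574, and Hoxd10 and Hoxd4 0.239 and -0.149. Without the 2 samples farthest from the median, Hoxa10 and Hoxc10 kept r = 0.750, Hoxc10 and Hoxc6 0.670 and Hoxa10 and Hoxa5 0.657. Hoxc10 and Hoxd10 then had r = 0.467 and no longer passed. The values of Hoxa10 and Hoxd10 became 0.343, and those of Hoxd10 and Hoxd4 0.0782.

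The partners and regulators of the Hox proteins were present in each sample. All 9 TALE genes were measured, and summed to 250 to 280 CPM, with Meis2 at 48.3 to 66.9 CPM and Pknox2 at 42.2 to 52.2 CPM. Of the Cdx genes, which induce caudal Hox genes in the embryo, Cdx1, Cdx2 and Cdx4 had at most 4, 1 and 9 counts in any sample. Evx1 and Evx2, which adjoin the paralog 13 ends of Hoxa and Hoxd, were at 0.219 to 1.23 and 0.0721 to 0.403 CPM. In the comparisons by cycle stage and by sex, 0 genes passed in the lists of TALE partners (9 tested), Cdx and flanking genes (7), antisense and cluster RNAs (9 and 10), retinoic acid signalling (14) and Polycomb and Trithorax regulators (22).

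Between library series these lists held genes called in both directions, beside 12.4% of all genes called higher and 15.2% called lower. Pbx4 (0.34, SE 0.06) was the only TALE gene called. Hoxb3os (0.27, SE 0.08) and Hoxb5os (0.27, SE 0.07) were higher in the second series, beside Hoxb5 and Hoxb2, and the r of Hoxb5os with Hoxb5 was 0.964 over 18 samples. Rxrb and Rxrg, retinoid receptors, were higher and Rarb lower. Of the 22 Polycomb and Trithorax genes 2 were higher, Phc2 among them (0.15, SE 0.03), and 7 lower: Phc3 (-0.74, SE 0.08), Suz12 (-0.39, SE 0.08), Kmt2a, Ezh2, Jarid2, Ash1l and Ezh1. Among the genes beside the clusters Mtx2 was higher, and Cbx5 and Hnrnpa2b1 were lower.

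Hox clusters also carry microRNAs, among them the families miR-196, known to target Hoxb8 and other Hox transcripts, and miR-10. Their mature 5p sequences (RefSeq) are shown because each family shares a seed, bases 2 to 8, set in capitals.
mmu-miR-196a-5p: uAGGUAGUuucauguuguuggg
mmu-miR-196b-5p: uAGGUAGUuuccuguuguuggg
mmu-miR-10a-5p: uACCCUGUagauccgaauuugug
mmu-miR-10b-5p: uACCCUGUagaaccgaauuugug

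These libraries were made from polyadenylated RNA, so counts at a hairpin do not measure the mature arm. Mir196b, which lies within Hoxa9 at 6:52230081-52230165, had 48 to 122 counts (median 70). Mir196a-1, between Hoxb13 and Hoxb9, had 0 to 6 counts, Mir196a-2, within the span of Hoxc5, 0 to 2, Mir10b, within the spans of Hoxd3 and Hoxd4, 4 to 13 and Mir10a, near Hoxb4, 0 to 2. Mir615, also within the span of Hoxc5, had none.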

How the data were processed

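The authors counted reads per gene, and the deposited table holds raw counts for 18 samples without normalization. Per the labels, polyA RNA was amplified with SMART-Seq v4 and tagmented with Nextera XT, and the submitters' processing notes name bcl2fastq 2.20.0.422, Subread 2.0.3, featureCounts, DESeq2 1.3.0 and mm10. The study's methods instead name a TruSeq kit and an older Subread, and the labels were followed. From a deposited table of the authors' own DESeq2 comparisons only the gene symbols were taken, which chose the members, and its statistics were not used. PCR duplicates are not marked by molecular identifiers, so count floors cover counting error only. Counts were fitted in edgeR 4.0.16 (R 4.3.3, filterByExpr with a minimum count of 10 and total of 15, TMM, quasi-likelihood F test, Benjamini-Hochberg FDR of 5% over all genes tested), with SE taken as the log2 difference over the root of F. The fit was tested on simulated data. CPM used TMM library sizes, and RPKM the GENCODE vM21 exon length (55480 of 55573 genes matched). Correlations used log2(CPM + 0.1) and 100000 permutations, and exact permutations within a series. DESeq2 1.42.0, RLE size factors, no filter, robust dispersions, a replicate block, the series as a covariate or alone, and leaving out each sample were alternatives. The series comparison came from library numbers, since the labels give no batch. Members, lists and tests were chosen with earlier results of these data known. Named were the leading member of each cluster, all of paralogs 9 to 13, members called or among the 3 smallest p-values in a comparison, members of the fixed pairs, those of largest and smallest spread, and called list genes with up to 2 more per list. Values of 1 member and of a few list genes are not reported here.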

Additional observations from a re-analysis of the deposited data

Results flagged for a closer look

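In 102 groups of 6 samples (34 members in 3 groups), 8 had a single sample whose gap to the nearest other, divided by the range of the group, passed Dixon's 95% critical value for 6 samples. Chance flags about 1 in 20 groups. F2/metestrus replicate 4 gave 4 of the 8. There Hoxc12 was at 1.98 CPM (0 to 0.528 CPM in the other F2/metestrus samples), Hoxd11 at 6.18 CPM (2.91 to 4.04 CPM), Hoxb6 at 40.3 CPM (29.0 to 32.6 CPM) and Hoxd1 at 0.836 CPM (0.392 to 0.507 CPM). In F1/proestrus, Hoxd1 was at 3.84 CPM in replicate 5 (0.400 to 0.907 CPM in the others), the library with ganglion transcripts. Hoxc8 was at 39.5 CPM in replicate 4 (28.4 to 31.3 CPM) and Hoxd10 at 38.7 CPM in replicate 3 (27.8 to 31.3 CPM). In males, Hoxa3 was at 3.21 CPM in replicate 3 (3.64 to 3.87 CPM).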

How the results depend on the processing

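The count of Hox genes called stayed at 0 for cycle stage and for sex under each alternative run, DESeq2 and every left-out sample included. Between series it was 14, and ran from 11 to 19 over the left-out samples. It was 17 of 39 in DESeq2, 16 with RLE size factors, 15 with robust dispersions and 14 of 39 without a filter. Over all genes, 27.6% were called in either direction, and 24.1% to 28.6% over the left-out samples. In DESeq2 16.2% were, with RLE size factors 28.1%, with robust dispersions 27.5% and without a filter 12.7%. Without F1/proestrus replicate 6 Hoxb9 was called lower (adjusted p = 0.0484, edgeR). Fold changes were followed for members called or among the 3 smallest p-values, which were 3 by stage, 3 by sex and 14 by series. Of their values, 60 of 60, 84 of 84 and 288 of 308 kept direction and side of the threshold, and 20 lost the call. By stage and sex no member was called in any setting, so only the direction could change there. Over all 34 members, the number positive by stage was 18, and ran from 13 to 26 over the left-out samples. Over all genes, the 49 calls by sex became 166 in DESeq2, 134 with series as a covariate, 148 with the replicate block, 16 and 13 within the first and second series, 77 without F1/proestrus replicate 5, and 30 and 25 without male replicates 4 and 5. DESeq2 called 2 genes by stage, against 0. By sex, the number of Hox genes at an unadjusted p under 0.05 was 1 (2416 over all genes), and 8 with the block (3993 over all genes). With the replicate block the number of Hox calls was 0 by stage and by sex. Samples of 1 number shared that number and also the library series, and only group means were taken out before they were correlated. Of 18 such pairs, 9 correlated above 0.1 (range -0.10 to 0.23), and 4 of 18 correlated best with their own number. The part of the series in these values was not tested.

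The weighted mean paralog number moved to 7.49 on exon length free of other genes, and to 7.44, 6.67, 8.46 and 8.69 in Hoxa, Hoxb, Hoxc and Hoxd alone. The difference of paralog 10 and paralogs 4 to 9 moved from 1.60 to 1.08, 2.28 and 1.87 in Hoxa, Hoxc and Hoxd alone, and to -0.495 with paralog 11 added, as the construction of each implies. Within the first and second series, r no longer passed for Hoxa10 and Hoxc10 (0.372, 0.745), Hoxc10 and Hoxd10 (0.552, 0.732), Hoxa10 and Hoxa5 (0.377, 0.323) and Hoxc10 and Hoxc6 (0.578, 0.480), with 9 samples each. Without the 2 samples farthest from the median Hoxc10 and Hoxd10 gave 0.467. For Hoxd10 and Hoxd4 r turned to -0.149 in the second series and -0.03 without F1/proestrus replicate 5. By the coefficient of variation, 3 of the 5 most variable genes were the same. Leaving out F1/proestrus replicate 5 from these values was chosen after seeing the data. Depth limited Hoxa13, Hoxb13, Hoxc13 and Hoxd12.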
